A study of Mus musculus with 8 samples.

Results

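Siglec, CD300 and other receptors of myeloid cells, most of them inhibitory, were followed as a group of 10 genes. They were measured in eosinophils that had been sorted from the bone marrow and the small intestine of mice. The genes were Siglecf, Siglece, Siglecg, Cd33, Cd300a, Cd300lb, Cd300lf, Pirb, Sirpa and Clec12a. They were chosen by their symbols among the 38392 genes of the expression table, and all 10 were found once. The study compared wildtype female C57/BL6 mice that carried no transgene, with 4 libraries per tissue. Cells were sorted as CD11b+Ly6G-Ly6C-SiglecF+SSChi from bone marrow and as CD11b+MHC-II-SiglecF+SSChi from small intestine. Both groups were untreated, and the age of the mice in these libraries is not stated in the labels. Siglec-F protein was itself a gate in both tissues, which can set the level of Siglecf. Intestinal cells were released by enzymes after removal of the epithelium and enriched on CD11b beads, whereas bone marrow was flushed out and sorted without either step, so that tissue and handling cannot be told apart. Libraries are named here by the columns of the table, with BM for bone marrow (BM_1, BM_3, BM_4 and BM_5) and SI for small intestine (SI_6, SI_7, SI_10 and SI_11). The labels do not tie a column to a single mouse, and p-values measure the spread between these libraries.

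Receptors of this kind sit on the surface of granulocytes and macrophages and set the threshold for activation. Siglecs bind sialic acid on glycans, CD300 receptors bind lipids exposed on dying or activated cells, Sirpa binds Cd47, and Pirb binds major histocompatibility complex class I. Most carry short tyrosine motifs in the tail that recruit the phosphatases encoded by Ptpn6, Ptpn11 and Inpp5d once Src family kinases have phosphorylated them, while some relatives lack such a tail and signal through the adaptors Tyrobp or Fcer1g. In mice Siglec-F is the best known receptor of eosinophils, and its ligation favors their death.

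Of the 10 receptors, 8 were higher in the cells sorted as eosinophils from small intestine, Clec12a was lower and Siglecg did not pass the test. The ratios of mean normalized counts ran from 2.75-fold for Siglece to 25.0-fold for Pirb, and Clec12a was 35.2-fold lower. For comparison, 22% of all genes were higher and 12.9% lower at the same threshold. Among the 16215 genes that averaged 10 reads or more, which include all 10 receptors, these shares were 34.6% and 28.6%. The median difference of the 10 receptors was 2.29 on the deposited log2 scale, against 0.37 over all genes and 0.12 over those that averaged 10 reads or more. The libraries of the tissues did not overlap for 9 of the 10 receptors, against 34.3% of all genes and 67.4% of those that averaged 10 reads or more. A difference is always small intestine minus bone marrow, given with its standard error (SE), and its adjusted p comes from the 2-sided test of limma, corrected by Benjamini-Hochberg for all 38392 genes and called under 0.05. A normalized count is the number of reads divided by the size factor of the library, and all means are given with the SD over 4 libraries. In sorted populations, fewer cells of a type and less RNA per cell cannot be told apart.

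**Figure D1:**
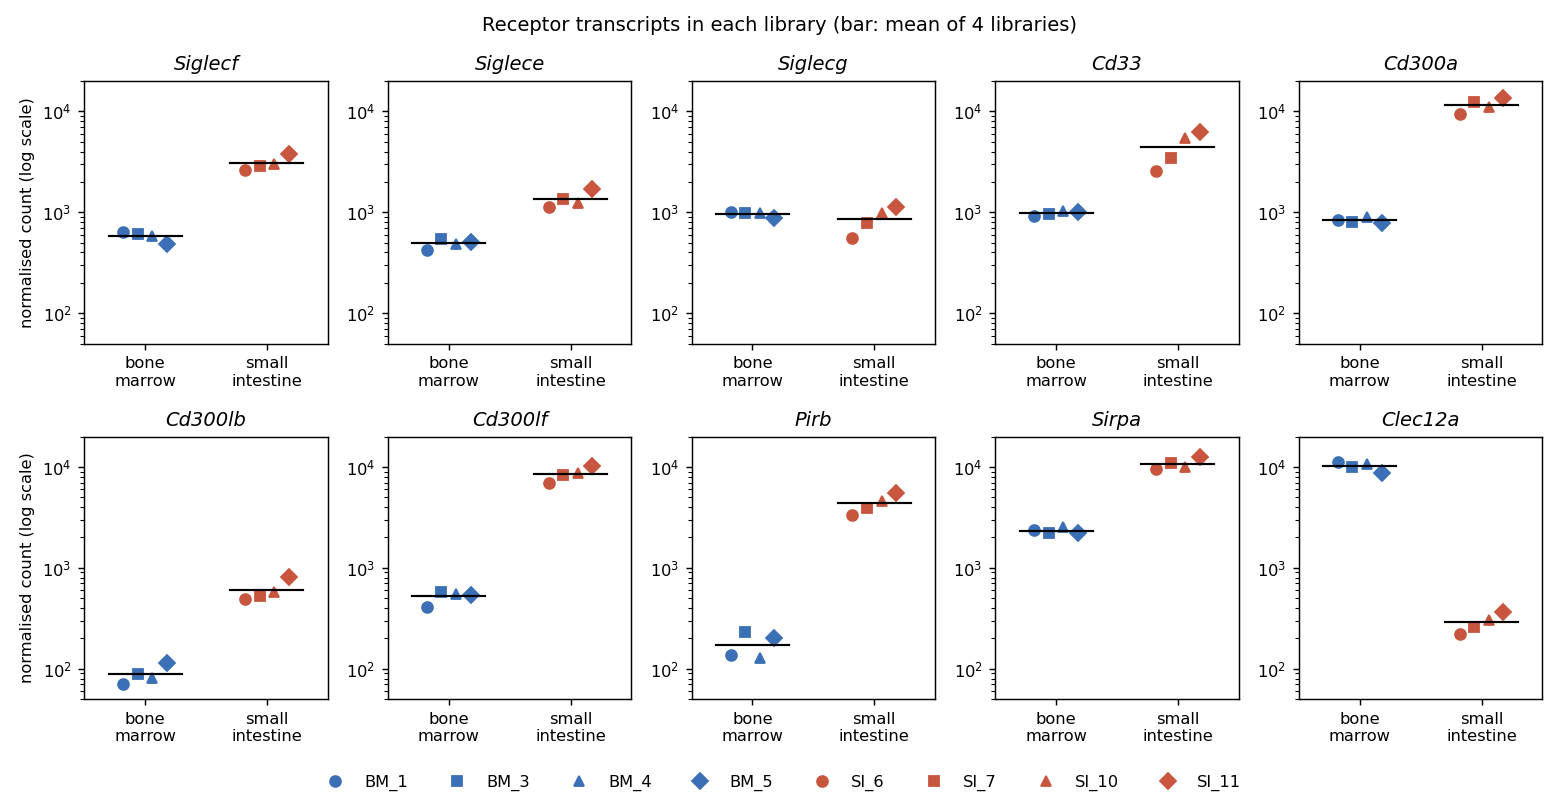
Normalized counts of the 10 receptors (vertical axis, log scale) in the 4 bone marrow libraries (blue) and the 4 small intestine libraries (red), 1 panel per gene, with a marker shape per library and a bar at the mean. The libraries of the tissues overlap for Siglecg alone, and Clec12a is the gene whose bone marrow libraries lie above those of small intestine.

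The libraries held 11508002 to 21289164 reads in genes, and reads were found for 19713 to 33346 genes per library. BM_5 held reads for 30886 genes, against 19713 to 24592 in the other bone marrow libraries. Marker genes were compared with the labelled cell type before the receptors. Of 10 eosinophil markers, 4 were higher in small intestine (Alox15, Ccr3, Il5ra and Siglecf) and 5 were lower (Prg2, Prg3, Epx, Ear1 and Ear2). Together they took 0.0211% to 0.0373% of all reads from bone marrow and 0.215% to 0.268% from small intestine. Most of the intestinal reads of this list came from Alox15 (66769) and Ccr3 (55221). Siglecf is counted here although it is also 1 of the 10 receptors and its protein was a gate. Markers of neutrophils and their precursors took 2.50% to 2.91% of all reads from bone marrow and 0.249% to 0.330% from small intestine, with 9 of 12 lower in small intestine and 2 higher (Retnlg and Mmp8). Retnlg gave most of the intestinal reads of this list (155215), ahead of Cxcr2 (2030) and Mpo (553). Mpo, an enzyme of neutrophil precursors, fell from 149860 ± 19352 to 164.5 ± 26.1 normalized counts. In bone marrow the 10 eosinophil markers ran from 11.0 ± 5.31 (Il5ra) to 1831 ± 396 (Prg2) normalized counts, with Epx at 350 ± 40.2. Of 10 macrophage markers 8 were higher in small intestine, and the list took 0.00602% to 0.00704% of all reads from bone marrow and 0.0980% to 0.104% from small intestine. In small intestine most of this came from Adgre1 (F4/80), which mouse eosinophils are known to express. The complement genes C1qa, C1qb and C1qc reached 76.8 ± 39.2, 185 ± 94.7 and 115 ± 33.5 normalized counts in small intestine. Of 6 monocyte markers 2 were lower in small intestine and none higher, among them Ly6c2 with 8268 ± 1228 normalized counts in the Ly6C- gate of bone marrow and 16.7 ± 3.79 in small intestine. Of 6 dendritic cell markers 2 were higher and 1 lower, and of 6 mast cell and basophil markers 1 was higher and 4 were lower. For comparison with these counts, 22% of all genes were higher and 12.9% lower. Among genes that averaged 10 reads or more, 34.6% were higher and 28.6% lower. No marker was at 0 in all libraries of a tissue. The part of these other cell types in the differences of the receptors was not tested.

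The Siglec genes of the group lie close together on chromosome 7. In GRCm38, Siglecf (ENSMUSG00000039013) spans 43351341 to 43359531 on the plus strand, Siglecg 43408204 to 43418358 on the plus strand, Cd33 43524216 to 43544428 on the minus strand and Siglece 43651070 to 43660161 on the minus strand. The windows of 250 bases before the RefSeq starts of Siglecf and Cd33 are shown because both genes rose and because these windows share a run of 16 bases, given in capitals. The Cd33 window lies inside the span given for the gene, because its RefSeq start lies within that span. The sequences are from RefSeq (GRCm38.p6), 5′ to 3′ on the strand of the gene, and end at the last base before the start.
Siglecf chr7:43351091-43351340 (plus strand): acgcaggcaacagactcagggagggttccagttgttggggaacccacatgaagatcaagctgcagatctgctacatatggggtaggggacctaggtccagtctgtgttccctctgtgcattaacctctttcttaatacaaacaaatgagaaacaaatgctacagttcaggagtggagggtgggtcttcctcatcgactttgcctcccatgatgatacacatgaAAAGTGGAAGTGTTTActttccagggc
Cd33 chr7:43533172-43533421 (minus strand): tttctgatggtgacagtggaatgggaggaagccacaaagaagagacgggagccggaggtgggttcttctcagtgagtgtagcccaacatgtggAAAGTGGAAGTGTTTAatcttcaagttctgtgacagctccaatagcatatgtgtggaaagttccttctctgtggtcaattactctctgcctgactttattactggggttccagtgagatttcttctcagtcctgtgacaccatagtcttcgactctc
The shared run begins 27 bases before the start of Siglecf and 157 bases before that of Cd33. It is the longest run shared by windows of different genes among the 10 windows available for 9 of the receptors (Siglecg has 2), and it occurred in 2 of 32851 mouse promoter windows of the same length (0.00609%). These 2 are the windows of Siglecf and Cd33 from which the run was taken, so the count could not be lower. The run was found after the values had been seen and is given as a description.

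Siglecf had 642, 610.4, 578 and 489 normalized counts in BM_1, BM_3, BM_4 and BM_5 and 2646, 2848, 2990 and 3820.2 in SI_6, SI_7, SI_10 and SI_11. Every intestinal library lay above every bone marrow library. The mean rose from 580 ± 66.0 to 3076 ± 516, which is 5.30-fold (difference 2.39 ± 0.20, adjusted p = 3.95e-05). Siglece, an inhibitory Siglec that is known from neutrophils and macrophages, had 425, 539, 488 and 513 normalized counts in the bone marrow libraries, in the same order, and 1137, 1362, 1224 and 1690.2 in the intestinal ones. Its groups did not overlap either, and the mean rose 2.75-fold, from 491 ± 48.6 to 1353 ± 243 (difference 1.44 ± 0.20, adjusted p = 0.000655). With each library centred on its median value, which moved the median difference of all genes from 0.37 to -0.53, the difference of Siglece was 0.54 and no longer passed the test (adjusted p = 0.364). That median was taken over all 38392 genes, with or without reads. It can therefore move with the number of genes detected, which was 19713 to 33346 per library. The rise of Siglece also missed the threshold in a test against a difference of 1 log2 unit (adjusted p = 0.162), which 9.01% of all genes passed as higher and 4.21% as lower.

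Cd33, whose mouse form differs from the human receptor in its cytoplasmic tail, had 919, 963, 1035 and 1013 normalized counts in the bone marrow libraries and 2579, 3459, 5404 and 6232 in those of small intestine. The intestinal libraries differed among themselves by more than for any other receptor, with SI_10 and SI_11 high and SI_6 and SI_7 low. Its SD on the deposited log2 scale was 0.59 in small intestine and 0.08 in bone marrow. The mean rose 4.50-fold, from 983 ± 52.0 to 4419 ± 1690 (difference 2.08 ± 0.30, adjusted p = 0.00075). Siglecg, best known as an inhibitor of B cell receptor signaling, had 1017, 974, 991 and 886 normalized counts in the bone marrow libraries and 559, 778, 991 and 1120.1 in those of small intestine. The intestinal libraries reached from below to above the bone marrow range, and the difference was -0.21 ± 0.25 with a 95% interval from -0.78 to 0.36 (adjusted p = 0.52). After median-centring, which called 11.2% of all genes higher and 26.6% lower, it was -1.11 and passed the test at an adjusted p = 0.0479. B cell markers took 0.00261% to 0.00442% of all reads from bone marrow and 0.000881% to 0.00131% from small intestine.

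Differences between pairs of Siglecs were compared within each library and then between tissues, in a family of 8 pairs of receptors (2-sided exact permutation test over 70 assignments, smallest possible p = 0.0286). Siglecf rose by 0.95 ± 0.14 more than Siglece and by 2.60 ± 0.14 more than Siglecg on the log2 scale (exact p = 0.0286 and adjusted p = 0.0381 for both). Siglecf and Cd33 were not told apart, with a difference of 0.31 ± 0.23 (exact p = 0.257, adjusted p = 0.257).

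The 3 CD300 genes lie on chromosome 11 and all rose in small intestine. Cd300a (114890041 to 114904654, plus strand), an inhibitory receptor for phosphatidylserine and phosphatidylethanolamine, had 833, 797, 899 and 789 normalized counts in the bone marrow libraries and 9411, 12487, 11173 and 13550.2 in those of small intestine. The mean rose 14.0-fold, from 830 ± 50.3 to 11655 ± 1784 (difference 3.79 ± 0.19, adjusted p = 2.82e-06). Cd300lf (115116214 to 115133992, minus strand), an inhibitory receptor that binds ceramide and phosphatidylserine, had 407, 582, 551 and 542 in bone marrow and 6934, 8353, 8708 and 10149.6 in small intestine. This was a 16.4-fold rise of the mean, from 520 ± 77.6 to 8536 ± 1321 (difference 4.03 ± 0.21, adjusted p = 3.56e-06).

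Cd300lb (114922781 to 114934386, minus strand), a relative without an inhibitory tail that signals through Tyrobp, was the least abundant of the 3. It had 70.5, 88.7, 80.4 and 115 normalized counts in the bone marrow libraries and 497, 521, 581 and 804 in those of small intestine. Here too every intestinal library was above every bone marrow library, and the mean rose 6.77-fold, from 88.7 ± 19.2 to 601 ± 140 (difference 2.70 ± 0.24, adjusted p = 5.55e-05). Cd300a rose by 1.09 ± 0.20 more than Cd300lb and Cd300lf by 1.32 ± 0.14 more (exact p = 0.0286, adjusted p = 0.0381 for both). Cd300a and Cd300lf were not told apart in size of change (-0.23 ± 0.14, exact p = 0.143, adjusted p = 0.163). Of stretches as long as a read (75 bases), 1.88% in the longest Cd300a transcript and 1.56% in that of Cd300lf also occurred in transcripts of another gene, and none did for Cd300lb.

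Pirb and Clec12a marked the extremes of the group. Pirb (ENSMUSG00000058818; chromosome 7, 3711409 to 3720391, minus strand) had 136, 229.6, 127 and 203 normalized counts in BM_1, BM_3, BM_4 and BM_5 and 3362, 3933, 4580.4 and 5513 in SI_6, SI_7, SI_10 and SI_11. The lowest intestinal library was thus far above the highest of bone marrow, and the mean rose 25.0-fold, from 174 ± 50.2 to 4347 ± 923 (difference 4.63 ± 0.27, adjusted p = 6.18e-06). Pirb rose by 2.44 ± 0.27 more than Sirpa (exact p = 0.0286, adjusted p = 0.0381). Its value is uncertain, since 31.1% of the stretches of 75 bases in its longest transcript also occurred in Gm15448, Lilra6, Pira2 or Gm14548, genes of the activating PIR-A type. All 4 of these were themselves higher in small intestine, by 4.56 to 7.18 on the log2 scale. How reads that match several genes were counted is not given in the sources used here.

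Clec12a (ENSMUSG00000053063; chromosome 6, 129342691 to 129365303, plus strand) is an inhibitory C-type lectin of myeloid cells that senses uric acid crystals and dead cells. It had 11169, 10019.5, 10582 and 8706 normalized counts in the bone marrow libraries and 220.5, 259, 303 and 369 in those of small intestine. All bone marrow libraries were high and all intestinal libraries low. The mean fell from 10119 ± 1052 to 288 ± 63.5 (difference -5.14 ± 0.22, adjusted p = 1.39e-06), which placed Clec12a 51st among the 20623 protein-coding genes when ordered from the lowest difference. In the same libraries, 2 of 6 monocyte markers were lower and none higher. Of 12 markers of neutrophils and their precursors, 9 were lower and 2 higher. Of all genes 12.9% were lower and 22% higher, and of those that averaged 10 reads or more 28.6% and 34.6%. The count of lower monocyte markers is near the latter share of lower genes. Monocytes and neutrophil precursors are known to express Clec12a, and their part in this difference was not tested. The change of Pirb relative to Clec12a was 9.77 ± 0.27 (exact p = 0.0286, adjusted p = 0.0381). Because Pirb rose and Clec12a fell without overlap of the libraries, this exact p had to be the smallest possible and adds nothing. Within small intestine the log2 difference of Pirb and Clec12a varied little, at 3.90 ± 0.0081 (SD, n = 4). Within bone marrow it varied more, at -5.87 ± 0.53, so the small spread was seen in 1 tissue only.

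The windows before the RefSeq starts of these oppositely changed genes are shown with the motifs that a search found in them, in capitals. The Clec12a window lies inside the span given for the gene, because its RefSeq start lies within that span.
Clec12a chr6:129349994-129350243 (plus strand): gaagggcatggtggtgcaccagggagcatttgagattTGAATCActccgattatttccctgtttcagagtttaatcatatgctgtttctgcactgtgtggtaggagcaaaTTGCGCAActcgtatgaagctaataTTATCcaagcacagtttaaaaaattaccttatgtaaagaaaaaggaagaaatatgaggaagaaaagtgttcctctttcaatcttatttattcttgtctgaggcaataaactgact
Pirb chr7:3720383-3720632 (minus strand): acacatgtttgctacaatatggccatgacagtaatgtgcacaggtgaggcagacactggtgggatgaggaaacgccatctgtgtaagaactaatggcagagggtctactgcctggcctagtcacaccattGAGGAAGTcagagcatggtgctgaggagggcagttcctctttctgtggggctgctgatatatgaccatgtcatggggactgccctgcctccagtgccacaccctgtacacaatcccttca
The motifs, chosen after the values were seen and searched on both strands, were GATAA for GATA factors, GAGGAAGT for PU.1, TTGCGCAA for C/EBP, TGANTCA for AP-1 and TNGCGTG for AHR. The Clec12a window held a TGANTCA match 213 bases before the start, TTGCGCAA at 140 bases and, on the other strand, GATAA at 115 bases. The Pirb window held GAGGAAGT 120 bases before the start. Of 32851 promoter windows of this length, 22.6% held GATAA, 2.44% GAGGAAGT, 0.164% TTGCGCAA, 6.75% TGANTCA and 4.1% TNGCGTG, the last of which was found among the receptors in the Cd300lb window, 35 bases before the start. Each of the 5 motifs occurred in 1 of the 10 windows of the receptors. A match is a stretch of letters and not a measured binding site.

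Sirpa (chromosome 2, 129592835 to 129632228, plus strand), the receptor for Cd47, was well expressed in both tissues. It had 2390, 2235, 2533 and 2196 normalized counts in the bone marrow libraries and 9610.1, 10919.5, 9953 and 12414 in those of small intestine. The groups were clearly apart with little spread in either, and the mean rose 4.59-fold, from 2338 ± 154 to 10724 ± 1255 (difference 2.19 ± 0.18, adjusted p = 3.47e-05). Cd47 itself moved the other way, from 11635 ± 886 to 3269 ± 555 normalized counts (difference -1.84 ± 0.19, adjusted p = 0.000142).

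**Figure D2:**
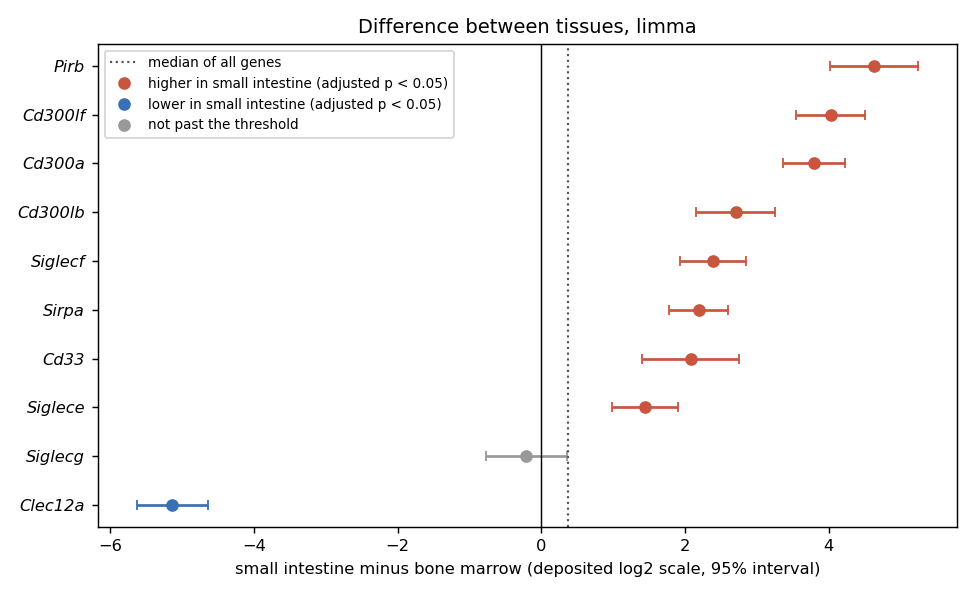
Difference between small intestine and bone marrow for each receptor (horizontal axis, deposited log2 scale) with its 95% interval from limma, n = 4 libraries per tissue. Pirb, Cd300lf and Cd300a lie between 3.79 and 4.63, Clec12a is at -5.14, and the interval of Siglecg includes 0. After median-centring, Siglece no longer passed the test and Siglecg passed it.

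The order of the receptors changed between the tissues. To compare genes with each other, normalized counts were divided by the length of all annotated exons in kb, so these levels depend on the annotation. The part of other cell types, such as neutrophil precursors in bone marrow, in these levels was not tested. In bone marrow, Clec12a led with 1831 ± 190.3 normalized counts per kb, and it made up 52.9% of the summed level of the 10 receptors. Sirpa followed with 476 ± 31.4 (13.8%). Below it came Siglece with 266, Siglecf with 208, Siglecg with 201.2, Cd300a with 175, Cd33 with 126 and Cd300lf with 101, and the order ended with Pirb at 38.9 and Cd300lb at 30.4. Neighbors in this order whose libraries overlapped were Siglece and Siglecf, Siglecf and Siglecg, Siglecg and Cd300a, and Pirb and Cd300lb.

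In small intestine, Cd300a led with 2460 ± 377 normalized counts per kb (24.4%), followed by Sirpa with 2184 (21.7%), Cd300lf with 1658 (16.4%), Siglecf with 1103 (10.9%), Pirb with 972 (9.56%), Siglece with 732 (7.23%) and Cd33 with 569 (5.50%). Cd300lb had 206, Siglecg 179 and Clec12a 52.1, or 0.512% of the sum. Of neighbors in this order, Cd33 and Cd300lb were apart, as were Siglecg and Clec12a, while all the others overlapped. The summed level rose from 3453 ± 214 to 10114 ± 1637 normalized counts per kb, and without Clec12a from 1623 ± 52.3 to 10062 ± 1626. The share of all reads in the 10 genes rose from 0.128% ± 0.0081 to 0.286% ± 0.0365. Among the 20623 protein-coding genes ordered by level per kb, Cd300a moved from position 2804 in bone marrow to 158 in small intestine, Pirb from 7345 to 489 and Clec12a from 159 to 6263.

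**Figure D3:**
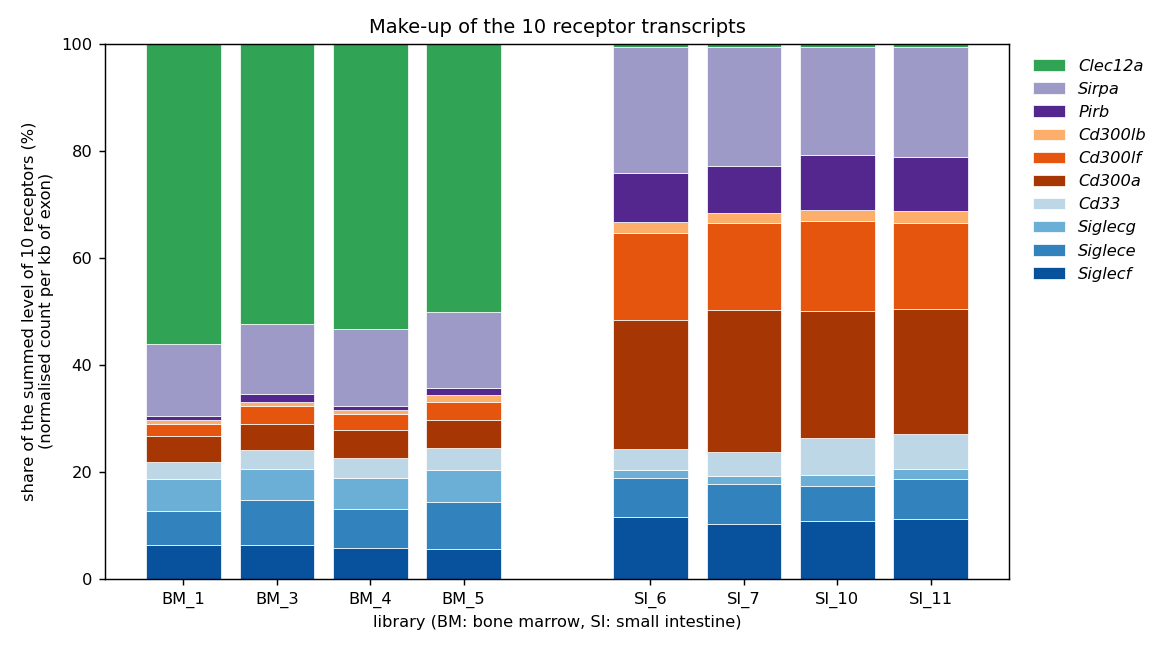
Share of each receptor in the summed level of the 10 receptors (vertical axis, percent of normalized counts per kb of exon) in each of the 8 libraries. Clec12a holds 50.1% to 56.0% of the sum in the bone marrow libraries, and Cd300a, Sirpa and Cd300lf are the leading receptors in those of small intestine.

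On the deposited scale, SI_11 was the highest and SI_6 the lowest intestinal library for all 10 receptors. Over the 16215 genes that averaged 10 reads or more, SI_11 was highest for 32.4% and SI_6 lowest for 32.7%. After median-centring SI_11 stayed highest for all 10 receptors and for 62.9% of those genes, and the lowest library was then SI_10 for 8 receptors and 72.6% of those genes, and SI_6 for 2 receptors. As a share of the reads outside 4 ribosomal RNA genes, SI_11 was highest for 9 receptors (15.9% of those genes), and the lowest library was SI_6 for 6, SI_7 for 2 and SI_10 for 2. In bone marrow no such order was seen, and BM_5 was lowest for 5 receptors and BM_1 for 4. Without SI_6 and SI_11, a choice made after the data were seen, the calls of all 10 receptors were the same, as they were without any single library, BM_5 included.

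Genes with profiles like those of Siglecf, Cd300a and Pirb were sought among 8739 protein-coding genes with a mean of at least 100 normalized counts, by the Euclidean distance of the centred deposited values over the 8 libraries. The nearest to Siglecf were Txnrd1, Gsn and H2-T23 (distances 0.164, 0.185 and 0.224 on the log2 scale). Tbxas1, Lpcat2 and Gramd1a were nearest to Cd300a (0.202, 0.208 and 0.255). Dip2c, Sgms1 and Rasgrp4 were nearest to Pirb at larger distances (0.439, 0.453 and 0.503). With tissue as the main source of variation, such distances chiefly find genes with a tissue difference of the same size.

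The other genes of the Siglec and CD300 families had at most 69.0 normalized counts in bone marrow on average. Of 14 listed, 13 were in the table, and 6 of these were higher in small intestine, none was lower and 7 did not pass the test (median difference 0.78), against 22% of all genes higher and 12.9% lower. As lower, 2 of the 13 passed after median-centring, against 26.6% of all genes, and 2 after quantile normalization, against 18.3%. Of 7 that averaged 10 reads or more, 5 were higher and 0 lower on the deposited values (all such genes 34.6% and 28.6%). Siglec15, among those called after median-centring, had 1 read from bone marrow and 0 from small intestine. Cd300ld, an activating relative, rose from 33.5 ± 10.05 to 4261 ± 591 normalized counts (difference 6.87 ± 0.26, adjusted p = 8.06e-07). This is a larger rise than that of any of the 10 receptors. Cd22, a Siglec best known from B cells, rose from 15.7 ± 6.64 to 688 ± 135 (difference 5.20 ± 0.28, adjusted p = 4.35e-06). Exons of a gene on the other strand, Gm29439, overlap 9.5% of the exon bases of Cd22. Cd300c2 rose from 69.0 ± 5.55 to 1072 ± 188 normalized counts (difference 3.87 ± 0.19, adjusted p = 2.82e-06).

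Of 50 further inhibitory and paired receptors, 39 were in the table, with 22 higher, 6 lower and 11 not past the threshold (median difference 1.44), beside the 22% and 12.9% of all genes. After median-centring 15 were higher and 8 lower (all genes 11.2% and 26.6%), and after quantile normalization 17 and 8 (all genes 15.5% and 18.3%). Of 31 that averaged 10 reads or more, 18 were higher and 6 lower on the deposited values (all such genes 34.6% and 28.6%). The largest rise was that of Clec4a4, a lectin of the DCIR family, which had 5 reads in all bone marrow libraries together and 4277 in small intestine (difference 8.68 ± 0.39, adjusted p = 1.7e-06). Its relative Clec4a2 fell from 2200.2 ± 161 to 178 ± 24.9 normalized counts (difference -3.61 ± 0.18, adjusted p = 3.28e-06), although 12.7% of the 75-base stretches of Clec4a4 also occurred in Clec4a2. The genes Lilra6 and Sirpb1a, activating counterparts of Pirb and Sirpa, rose by 7.18 ± 0.35 and 5.85 ± 0.33, with 18.5% and 20.2% of such stretches shared with relatives. Pilra, an abundant inhibitory receptor of the list, rose from 876 ± 160.2 to 5159 ± 678 normalized counts (difference 2.56 ± 0.21, adjusted p = 3.37e-05). Btla fell by 1.73 on the log2 scale and Ceacam1 by 1.65, with 40.6% of the 75-base stretches of Ceacam1 shared with other Ceacam genes.

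The 20 genes that carry the signals of these receptors were all in the table, and 14 were higher, 2 lower and 4 not past the threshold (median difference 1.93), beside the 22% and 12.9% of all genes. After median-centring 9 were higher and 2 lower (all genes 11.2% and 26.6%). All 20 averaged 10 reads or more, and of all such genes 34.6% were higher and 28.6% lower on the deposited values. The largest rises were those of the kinase Yes1 (4.36 ± 0.38), the adaptor Dok2 (4.34 ± 0.22) and the phosphatase Inppl1 (3.22 ± 0.50), with adjusted p-values of 4.85e-05, 3.36e-06 and 0.00119. For Inppl1, 20.3% of the exon bases are overlapped by other genes. The falls were those of Ptpn11 (-0.88 ± 0.17, adjusted p = 0.00336) and Dok1 (-0.83 ± 0.24, adjusted p = 0.0289). Without BM_1, BM_4, SI_6, SI_7 or SI_10, Dok1 no longer passed the test (-0.81 to -0.70).

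The adaptors of the activating relatives were the most abundant of the list. Tyrobp rose from 2393 ± 361 to 9213 ± 2402 normalized counts (difference 1.92 ± 0.24, adjusted p = 0.000349) and did not pass after median-centring (1.02, adjusted p = 0.0731). Fcer1g rose from 2057 ± 292 to 3328 ± 590 normalized counts (difference 0.69 ± 0.21, adjusted p = 0.032), a change that turned to -0.21 after median-centring and missed the threshold after quantile normalization (0.34, adjusted p = 0.154) and without BM_1 or BM_4 (0.73 and 0.62). Among genes chosen after their values were seen, Inpp5d, the phosphatase SHIP1, rose by 1.48 ± 0.19 (adjusted p = 0.000448) and the kinases Lyn and Syk by 2.18 ± 0.19 and 3.08 ± 0.19. Inpp5d did not pass after median-centring (0.58, adjusted p = 0.326) or against a difference of 1 log2 unit (adjusted p = 0.109). Ptpn6, the phosphatase SHP-1, had 1892 ± 188 normalized counts in the marrow and 1667 ± 220.5 in the intestine (-0.19 ± 0.19, adjusted p = 0.476), and passed as lower after quantile normalization (-0.45, adjusted p = 0.0357).

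On the ligand side, 14 of 34 genes for Cd47, Cd200 and the making or trimming of sialic acid were higher, 7 were lower and 13 did not pass the test (median difference 1.06), beside the 22% and 12.9% of all genes. After median-centring 12 were higher and 10 lower (all genes 11.2% and 26.6%), and after quantile normalization 11 and 9 (all genes 15.5% and 18.3%). Of 26 that averaged 10 reads or more, 13 were higher and 6 lower on the deposited values (all such genes 34.6% and 28.6%). Expression in the same cells does not show which glycans they carried. St6galnac5 rose by 6.10 ± 0.53 (adjusted p = 5.07e-05), St8sia4, which builds polysialic acid, by 4.26 ± 0.23 (adjusted p = 4.12e-06) and St6gal1, which makes the ligand of Cd22, by 4.14 ± 0.38 (adjusted p = 6.34e-05). St8sia4 was abundant in small intestine, with 14029 ± 3332 normalized counts. St6galnac6 fell by 2.20 on the log2 scale (SE 0.25, adjusted p = 0.000214), and the fall of Nanp, a phosphatase of sialic acid synthesis, rested on 33 reads from bone marrow and 4 from small intestine. Gne and Nans, enzymes of the same pathway that were named after their values were seen, fell by 1.38 and 1.39 on the log2 scale, neither of them past the test against 1 log2 unit. Exons of Trim14, on the other strand, overlap 29.6% of the exon bases of Nans. For Nanp, 55.2% of the 75-base stretches also occurred in other genes.

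**Figure D4:**
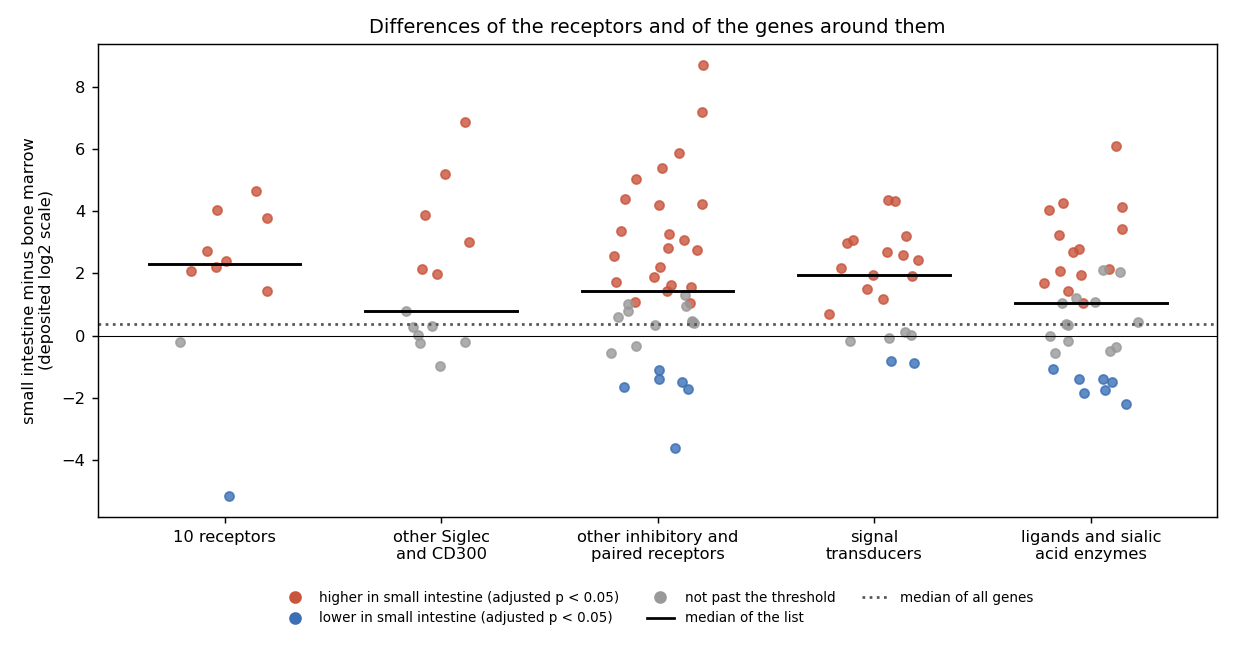
Differences between small intestine and bone marrow (vertical axis, deposited log2 scale) of the 10 receptors and of the genes in the 4 lists around them, 1 point per gene, with the median of each list as a bar and the median of all genes (0.37) as a dotted line. The list medians lie between 0.78 and 2.29, and rises and falls stand side by side in most lists. Centring each library on its median moves the median of all genes from 0.37 to -0.53, and the medians of the lists with it.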

How the data were processed

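RNA from sorted eosinophils was amplified with the NuGEN Ovation kit, and single-end reads of at least 75 bases were mapped by the authors to GRCm38 with Ensembl 86 in a public pipeline. The deposited values are log2 values that the authors made with the variance stabilization of DESeq2 (R 4.0.3 per the labels). No source used here names the aligner or the strand setting. Columns were matched to tissues by name, and the single mouse behind a column is not given.

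The transformation was inverted from its lowest value. Values under 20000 reads were whole within 0.05 for 100% of genes in each library, and size factors were 0.721 to 1.53. All 38392 genes were in GENCODE M21, which gave coordinates, exon lengths and the 75-base stretches shared between transcripts. The test was limma (3.58.1, R 4.3.3), fitted to the deposited values without covariate or filter over 8 libraries of 11508002 to 21289164 reads. The authors had fitted DESeq2 on counts. Other steps ran in Python 3.11.15 (pandas 2.3.3, numpy 2.4.6, matplotlib 3.10.9, scipy 1.17.1).

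Alternatives were median-centring, quantile normalization, voom on recovered reads, a minimum of 10 mean reads, a prior with a trend and leaving out each library. The median used for centring included genes without reads. Added after the data were seen were the log2 ratio of mean counts, leaving out SI_6 and SI_11, and a test against 1 log2 unit. Receptors and lists were chosen with earlier results of these data known. The genes named are the 10 receptors, the 3 largest rises and falls past the threshold and the 2 most abundant genes per kb in each list, the 3 genes nearest to Siglecf, Cd300a and Pirb, and markers a result turns on. Promoter sequences are those of RefSeq (GRCm38.p6), matched by symbol for 9 of 10 receptors.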

Additional observations from a re-analysis of the deposited data

Results flagged for a closer look

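In 3 of 66 groups of 4 libraries, 1 library lay further from the others than Dixon's 95% critical value for the gap as a share of the range, and chance flags about 1 in 20 groups, or 3.3 here. None was a group of the 10 receptors. For Cd300c2 in small intestine, SI_11 was the highest with a gap of 0.86 of the range. For Clec4a2 in bone marrow, BM_5 was the lowest with 0.862. For Nanp in small intestine, SI_11 held all 4 reads and the other libraries none, which gives 1.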

How the results depend on the processing

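No paired analysis was made, because the sample titles give different mouse numbers to bone marrow and to small intestine. The calls of the 10 receptors, 8 higher and 1 lower, were the same without any single library and under quantile normalization, voom, the filter on reads and the prior with a trend. Median-centring, which turned the share of higher calls among all calls from 63.2% to 29.5%, gave 7 higher and 2 lower: Siglece (0.54) was lost and Siglecg (-1.11) passed. It also gave 9 higher signal transducers in place of 14, a Fcer1g difference of -0.21, and 2 lower Siglec and CD300 relatives (Siglec15 and Siglech) in place of 0. Quantile normalization gave 2 there as well (Cd300lg and Siglech), with 45.8% of all calls higher. Against a difference of 1 log2 unit, Siglece (1.44) did not pass, and the lists held 14 higher and 1 lower further inhibitory receptors, 0 lower transducers, and 9 higher and 2 lower ligand-side genes.

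With 1 library left out at a time, 1 to 2 transducers were lower, depending on Dok1, and 0 to 1 relatives (Siglech without BM_3). Nanp missed the threshold without BM_1, BM_3, BM_4, SI_6, SI_7 or SI_10 (-1.79 to -1.55). Pair differences kept their direction and were not tested again with 3 libraries in a tissue. Depth limits the genes with few reads, such as Nanp, Siglec15 (1 read from bone marrow and 0 from small intestine) and the bone marrow values of Clec4a4.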
